A study of Gallus gallus with 9 samples.

Results

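The transcription factors that set up and maintain hepatocyte identity were followed in broiler liver: HNF4A, FOXA1, FOXA2, CEBPA, CEBPB, ONECUT1, PROX1 and NR5A2. The members were all probe sets (groups of array probes read together as 1 value) that carry exactly 1 gene symbol in the platform annotation, that symbol being 1 of these 8. This gave 11 probe sets for 7 genes, out of 13009 gene symbols and 38535 probe sets in the table. ONECUT1 had no probe set under its symbol and was not analysed here. Liver was taken from ROSS308 broilers, a commercial chicken line for meat, aged 35 days. The 4 control birds ate a standard diet, and the 5 Se-yeast birds ate that diet with selenized yeast (the product Sel-Plex) that added 0.5 mg of selenium per kg, both freely for 35 days. A further control sample had failed quality control and is not in the data, per the series design. The standard diet was shared by both groups, 1 array was run per bird, and the labels give neither sex nor batch. Values are MAS5 signals, the linear intensities that the Affymetrix MAS5 algorithm gives after scaling each array to a common mean.

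Hepatocytes keep their character through a small network of factors that bind each other's genes as well as the genes of plasma proteins and metabolic enzymes. In mammals the FOXA proteins open closed chromatin early in liver development, HNF4A and the C/EBP proteins then drive the mature programme, and NR5A2 adds bile acid and cholesterol genes. PROX1 acts in liver growth and as a partner that dampens the activity of HNF4A and NR5A2.

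The array of Se-yeast bird 1 stood apart in its bioB, bioC, bioD and cre spike-in controls. These are bacterial and phage transcripts that are added to each sample in known amounts before hybridisation. All 27 probe sets of these controls were highest in that bird, at 1.53 to 2.49 times the next highest array. Their geometric mean was 8924 there and between 3312 and 4095 in the other 8 birds. Other measures showed no such gap: over the 9 arrays the median signal ran from 100.5 to 125 (exact permutation p between diets = 0.429) and any 2 arrays correlated between 0.933 and 0.963 over the tested probe sets. For the GAPDH control, signal at the 3′ end over that at the 5′ end ran from 0.752 in Se-yeast bird 2 to 0.872 in Se-yeast bird 1 (exact permutation p = 0.976). An array's mean correlation with the others averaged 0.953 among control and 0.948 among Se-yeast birds, at an exact permutation p of 0.0397 before any adjustment over the array measures. The part of the spike-in difference in the values below was not tested. Many results that move with Se-yeast bird 1, but not all, are given with and without that bird.

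No factor differed between the diets beyond the spread between birds. With limma, a linear model with variances shared across probe sets, 0 of the 11 member probe sets passed an adjusted p of 0.05 (Benjamini-Hochberg over all 23063 tested), and 0 had an unadjusted p under 0.05. Their smallest unadjusted p was 0.363 and their adjusted p was 0.999 throughout. Over all probe sets tested, 6 passed, which is 0.026%, and 4.67% had an unadjusted p under 0.05. In exact permutation tests over all ways to part the birds, two-sided, the members' p ran from 0.444 to 0.944, where the design allows 0.00794 at the smallest. The control and Se-yeast birds overlapped in all 11 probe sets, and 1.64% of all tested probe sets had groups that did not overlap. On the log2(signal + 16) scale used for every difference here, given as Se-yeast minus control, 5 members stood above 0 and 6 below. Their median was -0.02, against 0.02 over all tested probe sets. Without Se-yeast bird 1, 0 members passed and 0 had an unadjusted p under 0.05 by limma.

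**Figure D1:**
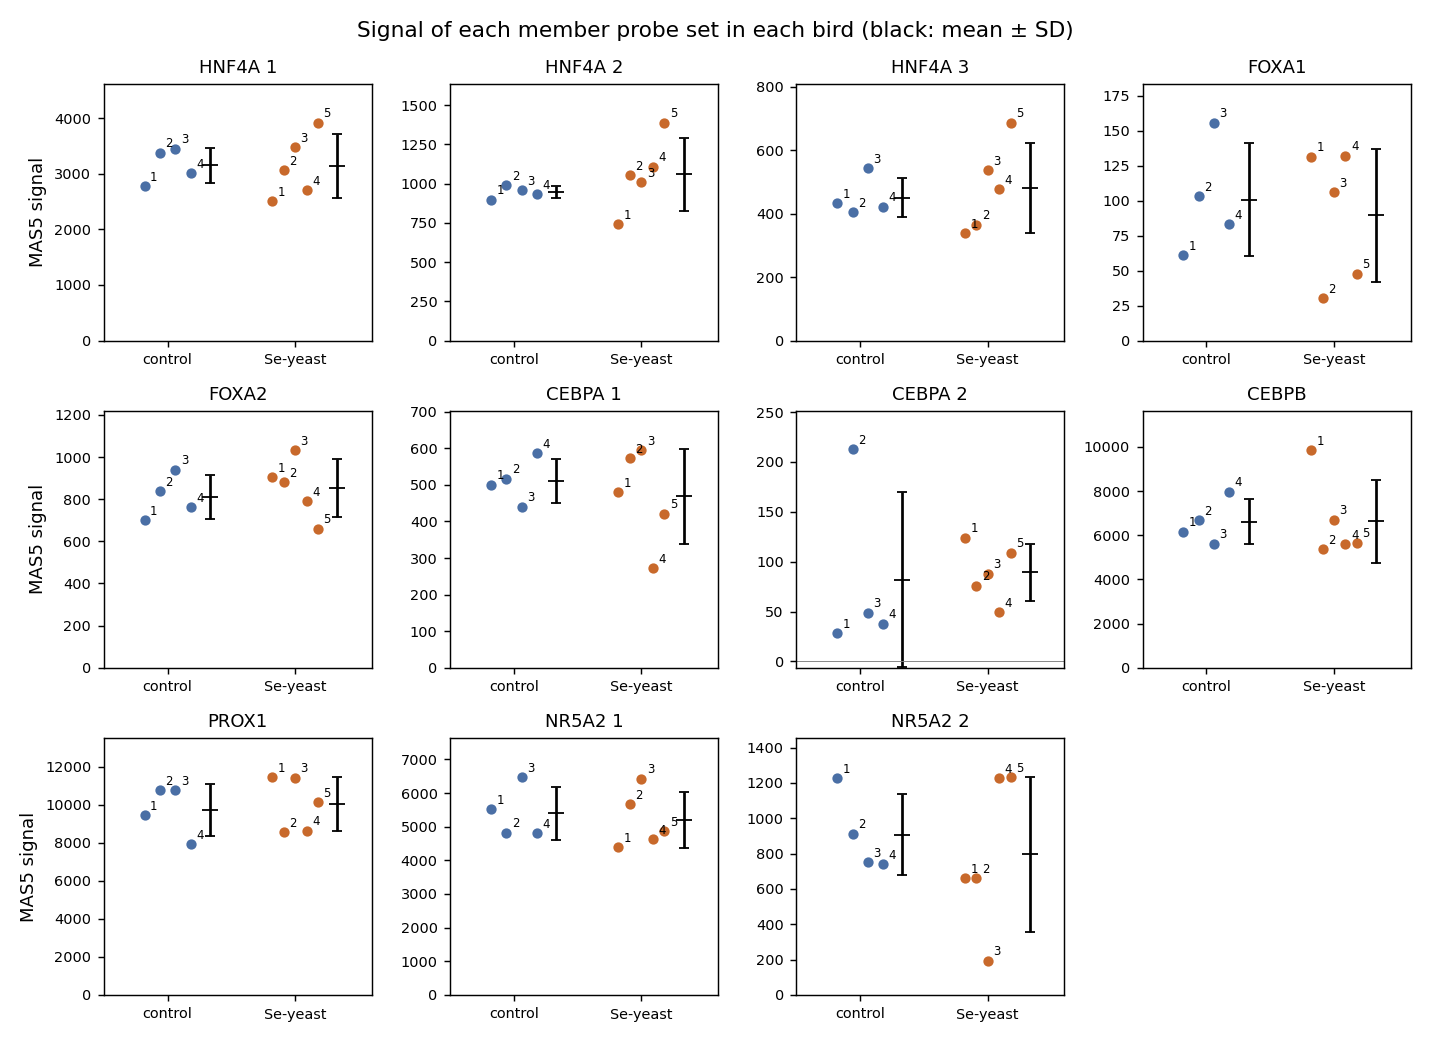
Each panel shows 1 probe set, with the MAS5 signal on a linear axis, 1 point per bird labelled with its replicate number, control in blue and Se-yeast in orange, and the mean with its SD in black. Probe sets of 1 gene are numbered from the highest to the lowest mean signal, and the groups overlap in every panel.

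HNF4A, the nuclear receptor at the centre of the adult hepatocyte network, was read by 3 probe sets. On HNF4A 1 the signals were 2777, 3375, 3451 and 3012 in control birds 1 to 4, and 2505, 3068, 3479, 2702 and 3916 in Se-yeast birds 1 to 5. The highest and the lowest bird were both in the Se-yeast group, so the control range lay inside the Se-yeast range. The means were 3154 ± 316 (SD, n = 4) and 3134 ± 574 (SD, n = 5), a difference of -0.02 with a 95% interval from -0.35 to 0.30. The difference was 0.05 without Se-yeast bird 1.

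On HNF4A 2 the control birds lay close together, at 898, 989.7, 959 and 934, and the Se-yeast birds read 742, 1053, 1008, 1108 and 1388. Here 4 of the 5 Se-yeast birds were above every control bird and Se-yeast bird 1 was below every control bird. The difference was 0.14 (interval -0.23 to 0.50, exact permutation p = 0.484). Without Se-yeast bird 1 it was 0.25 (exact permutation p = 0.0286, the smallest that 70 arrangements allow in a two-sided test; limma unadjusted p = 0.109), and without Se-yeast bird 5 it was 0.03. With Se-yeast bird 1 left out, the groups did not overlap in 3.18% of all genes tested, each by its brightest probe set. The identifiers of HNF4A 2 and of FOXA2 end in _s_at, which marks probes that can also read related transcripts. On HNF4A 3 the signals were 434, 405, 543 and 422 in control and 338, 366, 537, 478 and 686 in Se-yeast birds, a difference of 0.05 (interval -0.40 to 0.51), or 0.16 without Se-yeast bird 1. All 3 HNF4A probe sets were highest in Se-yeast bird 5 and lowest in Se-yeast bird 1.

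NR5A2, the orphan nuclear receptor also called LRH-1, activates bile acid and cholesterol handling genes. NR5A2 1 read 5513, 4816, 6473 and 4810 in control and 4394, 5664, 6431, 4628 and 4872 in Se-yeast birds. Control bird 3 and Se-yeast bird 3 were the highest, at almost the same signal, and the difference between the groups was -0.06 (interval -0.37 to 0.26). NR5A2 2 read 1228, 912, 749.96 and 740.1 in control and 660.1, 661, 193, 1228 and 1233 in Se-yeast birds. Se-yeast bird 3, which was high on the first probe set, was the lowest on the second. The difference on NR5A2 2 was -0.41 with a wide interval, from -1.33 to 0.52, and it was 0.02 without Se-yeast bird 3. Once group means were removed, the probe sets of this gene ran in opposite directions over the 9 birds (Pearson r = -0.61, exact permutation p = 0.0734, adjusted p = 0.0918; Spearman rho = -0.20, p = 0.613, adjusted p = 0.613). Without the 2 birds farthest from the median r was 0.05, so that relation rested on those birds, and the probe sets disagree on how NR5A2 varied.

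FOXA1 and FOXA2 are forkhead proteins, called pioneer factors because they bind DNA in closed chromatin. FOXA2 read 699, 836, 940.2 and 762 in control and 903, 879.6, 1033, 790.3 and 659.9 in Se-yeast birds. The groups covered nearly the same span, and the difference was 0.07 (interval -0.28 to 0.41). FOXA1 read 61.1, 103, 156 and 83.1 in control and 131, 30.2, 106, 132 and 47.8 in Se-yeast birds. These signals lie around the level of 64.7 below which probe sets were not tested, and detection calls were not used, so they do not show whether the gene was expressed. Its difference was -0.23, with an interval from -1.10 to 0.63, and -0.39 without Se-yeast bird 1.

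CEBPA and CEBPB belong to the C/EBP family of leucine zipper proteins: CEBPA favours the resting, metabolic hepatocyte, and CEBPB responds to inflammation and to liver injury. CEBPA 1 read 500.5, 517, 440.2 and 586 in control and 479, 573, 596, 273 and 422 in Se-yeast birds. Se-yeast bird 4 stood lowest by a wide margin, and the difference was -0.16 (interval -0.63 to 0.30). CEBPA 2 was dim, at 28.1, 213, 48.9 and 38.0 in control and 124, 75.9, 88.1, 49.6 and 109 in Se-yeast birds. Control bird 2 alone lay above every Se-yeast bird, and the other 3 control birds lay below every Se-yeast bird. The difference was 0.40 (interval -0.58 to 1.39), and without control bird 2 it was 0.92. The exact permutation p was then 0.0357, the limma unadjusted p 0.0261 and the limma adjusted p 0.996. In that setting 1030 of the 23063 tested probe sets had a limma unadjusted p under 0.05. The share of all probe sets whose groups did not overlap without control bird 2 was not computed. With each other control bird left out it lay lower, at 0.13 without control bird 1, 0.32 without control bird 3 and 0.23 without control bird 4. The difference of CEBPA 2 has the opposite sign to the brighter probe set of the gene. The identifiers of the pair differ only in a letter, S1 for CEBPA 1 and A1 for CEBPA 2. Affymetrix uses these letters for sense and antisense orientation, so CEBPA 2 may not read the CEBPA transcript. The strand was not checked here.

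CEBPB read 6150.4, 6681, 5607 and 7976 in control and 9859, 5362, 6698, 5591 and 5666 in Se-yeast birds. Se-yeast bird 1 was the highest and control bird 4 came next, while the other 7 birds lay between 5362 and 6698. The group means were 6604 ± 1015 (SD, n = 4) and 6635 ± 1874 (SD, n = 5), a difference of -0.02 (interval -0.41 to 0.37). It was -0.17 without Se-yeast bird 1 (exact permutation p = 0.257). CEBPG, the protein-coding gene next to CEBPA in the RefSeq gene table and itself a C/EBP protein, stood at -0.05 (limma adjusted p = 0.999).

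PROX1, a homeobox factor of the early liver bud and of lymphatic endothelium, read 9443, 10760.1, 10777 and 7925 in control and 11451, 8559, 11419, 8628 and 10132 in Se-yeast birds. Neither group was uniformly higher, and the difference was 0.04 (interval -0.26 to 0.35), or -0.0056 without Se-yeast bird 1. It had the smallest spread between birds within a group of all 11 members, an SD of 0.21 on the log2(signal + 16) scale.

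For the probe set with the highest mean signal of each gene other than FOXA1, the 95% intervals lay within -0.63 and 0.41 on the log2(signal + 16) scale. With 4 and 5 birds, differences inside a gene's own interval could not be resolved, so these values do not show that the diets acted alike. The intervals are relative to each array's scaled mean and would not show a change in the RNA content of the whole cell. In pieces of whole liver, fewer hepatocytes and less of a transcript per hepatocyte cannot be told apart.

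**Figure D2:**
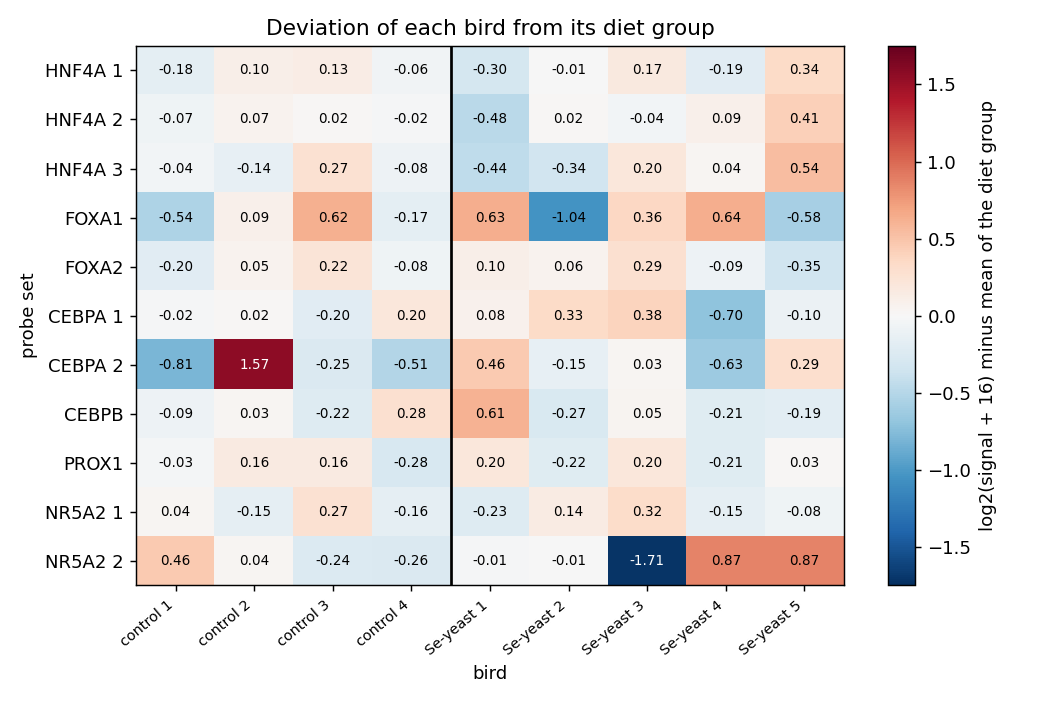
Rows are the 11 member probe sets, columns the 9 birds, and each cell gives log2(signal + 16) minus the mean of the bird's diet group. The 3 rows of HNF4A share their extremes in Se-yeast birds 1 and 5, while the row pairs of NR5A2 and CEBPA do not match.

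How much each factor varied from bird to bird within a diet was set beside the same measure over all probe sets. The within-group SD on the log2(signal + 16) scale was 0.22 for HNF4A 1, 0.21 for FOXA2 and 0.22 for NR5A2 1, where the median over all tested probe sets was 0.34. PROX1, FOXA2, NR5A2 1 and HNF4A 1 had SDs at percentiles 17.7, 19.2, 19.6 and 20.2 of all tested probe sets. Dim probe sets vary more on a log scale, so these percentiles follow signal. Against the SD that limma's trend gives at the same signal, the ratios of these 4 ran from 0.81 for FOXA2 to 0.991 for PROX1, close to what the array shows in general. CEBPB varied more than its signal level would give, at a ratio of 1.43, and so did CEBPA 2 at 1.42 and FOXA1 at 1.31. NR5A2 2 stood farthest from the trend, at 3.08 times its SD. The largest deviation from the group mean was 0.61 in Se-yeast bird 1 for CEBPB and 1.57 in control bird 2 for CEBPA 2. It was -1.04 in Se-yeast bird 2 for FOXA1 and -1.71 in Se-yeast bird 3 for NR5A2 2. Among control birds alone CEBPB had an SD of 0.216, where the trend gives 0.215. Ratios without these single birds were not computed.

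Whether the factors moved together from bird to bird was examined in 21 pairs of genes, with group means removed and each gene represented by its brightest probe set. No pair passed: Pearson r ran from -0.48 for CEBPB with NR5A2 to 0.54 for FOXA2 with NR5A2 (n = 9 birds, exact permutation p = 0.18 and 0.134), and the smallest adjusted p was 0.669. Spearman's rho gave 0 pairs with an unadjusted p under 0.05 (smallest adjusted p = 0.685). FOXA2 with NR5A2 had a rho of 0.35 (exact permutation p = 0.359) and an r of 0.79 without the 2 birds farthest from the median of FOXA2. CEBPB with NR5A2 had a rho of -0.57 (exact permutation p = 0.121) and an r of 0.05 without the 2 birds farthest in CEBPB. No pair passed without Se-yeast bird 1 either (n = 8, smallest exact permutation p adjusted over the 21 pairs = 0.729). The signs were positive in 15 pairs and negative in 6. Pairs that share a gene are not independent, and the share of positive signs among other gene pairs was not computed.

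Probe sets of the same gene served as a check on what such correlations can show. The HNF4A probe sets correlated at r = 0.75, 0.77 and 0.76 (n = 9, exact permutation p = 0.0167, 0.0165 and 0.0237, each with an adjusted p of 0.0395 over 5 same-gene pairs). Their Spearman values were 0.47, 0.67 and 0.52 (exact permutation p = 0.213, 0.0589 and 0.162, adjusted p from 0.294 to 0.355). Without the 2 birds farthest from the median, which are Se-yeast birds 1 and 5, r was -0.03, 0.36 and -0.13, so the relation rested on those birds. Without Se-yeast bird 1 alone r was 0.59, 0.65 and 0.62, each with an adjusted exact permutation p of 0.14 (n = 8). The CEBPA pair had r = 0.22 (exact permutation p = 0.528, adjusted p = 0.528; rho = 0.30, p = 0.437, adjusted p = 0.546; r = -0.08 without the 2 farthest birds).

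The genes whose pattern over the 9 birds was most like each factor were picked from 17923 tested probe sets of other genes by the highest Pearson r after removal of group means. With that many candidates and 9 birds, a high r is found for any pattern, so these names are a description with no test. FOXA2 was tracked most closely by MST1 (r = 0.99), TMBIM1 (0.96) and FBXO42 (0.96), and CEBPA by PPID (0.99), SNX13 (0.97) and ACVR2B (0.97). The nearest to HNF4A were STARD3 (0.97), LOC417551 (0.95) and TIMM8A (0.94). NR5A2 was followed by ARF6 (0.96), MRNIP (0.96) and CAAP1 (0.95), and PROX1 by SLC25A14 (0.97), TSC1 (0.97) and MYCT1 (0.95). FOXA1 was followed by PEX10, FRMD6 and OTUD7B (0.95 each), and CEBPB by KIAA1462 (0.95), MAGI1 (0.93) and SLC25A17 (0.93). Without the 2 birds farthest from the median of CEBPB, KIAA1462 and SLC25A17 dropped to 0.77 and 0.61. For every other gene named here r stayed at 0.84 or above when its factor's 2 farthest birds were left out.

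Other transcription factors of the liver were set beside the members, each gene by its brightest tested probe set. Of the 25 listed, 16 were tested, 10 of them above 0 and 6 below, with a median of 0.04 against 0.02 over all 10382 genes tested. Leaving out Se-yeast bird 1 gave 8 above 0 and a median of 0.01. By limma 0 passed, and 0 had an unadjusted p under 0.05. Over all genes 4 passed, which is 0.0385%, and 5.04% had an unadjusted p under 0.05. HLF, a leucine zipper factor of circadian output, stood at -0.34 (interval -0.75 to 0.08). Its signals were 1526, 1375.5, 1507 and 1323.5 in control and 1389, 1311, 1393, 1001 and 724 in Se-yeast birds, with Se-yeast birds 4 and 5 below all others. The gene's other 3 probe sets stood at -0.17, -0.29 and -0.25. HHEX, a homeobox factor of the liver bud, stood at -0.25, NFIL3, a repressor that opposes HLF, at -0.26, and PPARA, the fatty acid sensing receptor of fasting, at 0.22. The dimmer probe sets of PPARA stood at 0.24 and -0.17. FOXA3 and ONECUT2 were not analysed here.

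Coactivators and corepressors that these factors recruit lay mostly above 0 without passing. Of 12 listed, 9 were tested, 8 above 0 and 1 below, with a median of 0.16. Over all genes tested 53.0% were above 0, with a median of 0.02. With each array centred on its median 6 of the 9 cofactors were above 0 (median 0.10). Centring moves the difference of every gene by the same amount, as for PROX1 from 0.0448 to -0.0139. The share of all genes above 0 with centring or quantile normalisation was not computed, here or for the lists below. Leaving out Se-yeast bird 1 gave 7 above 0 (median 0.15). By limma 0 cofactors passed (smallest adjusted p = 0.999), and 2 had an unadjusted p under 0.05, against 5.04% of all genes tested. PPARGC1A, the coactivator that joins HNF4A on gluconeogenic genes in fasting, read 501, 1064, 908 and 789.6 in control and 1588, 938, 1148, 1783 and 1037 in Se-yeast birds. Se-yeast birds 1, 3 and 4 were above every control bird and the others overlapped the control range. The difference was 0.67 (interval 0.15 to 1.19, unadjusted p = 0.0161, adjusted p = 0.999), and the dimmer probe set of PPARGC1A stood at 1.22. On the brighter probe set it was 0.58 without Se-yeast bird 1 (limma unadjusted p = 0.0402). NCOA2, a coactivator of nuclear receptors, read 538, 694, 699.9 and 672 in control and 794, 1059.5, 919, 777 and 894 in Se-yeast birds. Its groups did not overlap, as was the case for 1.83% of all genes tested, and the difference was 0.44 (interval 0.12 to 0.76, unadjusted p = 0.0115, adjusted p = 0.999). The other tested probe sets of NCOA2 stood at 0.42, 0.06, 0.02 and -0.22, so its value depended on the probe set. PPARGC1B stood at 0.47 and SMARCA4 at 0.26.

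**Figure D3:**
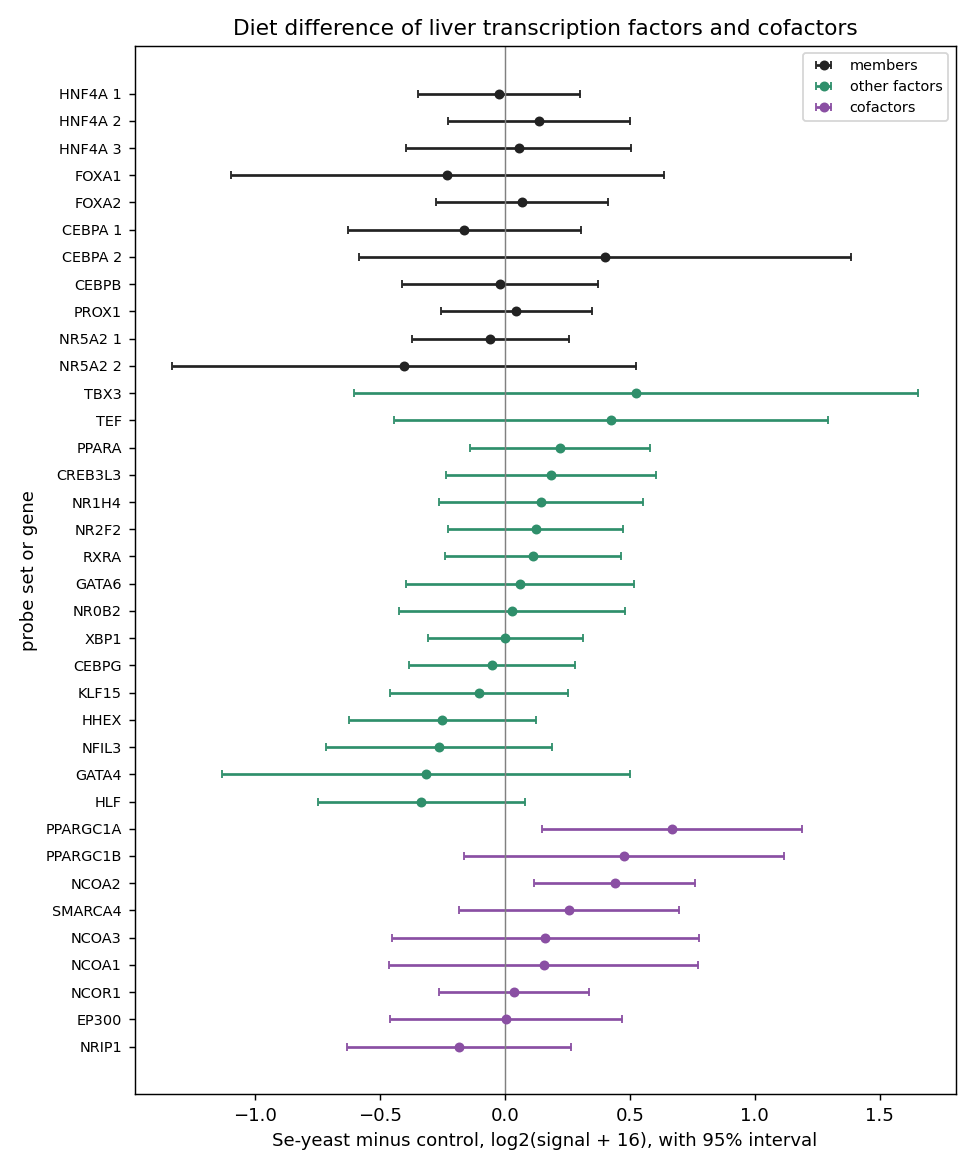
Points are differences between the diets on the log2(signal + 16) scale with 95% intervals from limma, for the 11 member probe sets (black), 16 other liver factors (green) and 9 cofactors (purple). All member and other factor intervals include 0, and those of PPARGC1A and NCOA2, at 0.67 and 0.44, do not.

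Genes known as targets of the factors, mostly from mammals, gave a second view of the network. In all 33 were tested, 26 above 0 and 7 below, with a median of 0.15, against 53.0% above 0 and a median of 0.02 over all genes tested. By limma 0 passed (adjusted p from 0.999), and 6 had an unadjusted p under 0.05, against 5.04% of all genes tested. The 6 became 3 without control bird 1, control bird 4 or Se-yeast bird 1, 9 without Se-yeast bird 3, 2 without the intensity trend and 3 with each array centred on its median. Among all tested probe sets the count with a limma unadjusted p under 0.05 moved as well, from 1078 in the main fit. It was 792, 857 and 1062 without control bird 1, control bird 4 and Se-yeast bird 1. Without Se-yeast bird 3 it was 1147, without the intensity trend 1038 and with median centring 979. Leaving out Se-yeast bird 1, 24 of the 33 were above 0 with a median of 0.14. The side of 0 depended on the scaling: with quantile normalisation 20 of the 33 were above 0 with a median of 0.01, and with each array centred on its median 21 were above 0 with a median of 0.10. The share of all genes above 0 was not computed under either scaling, so these counts have no such baseline. Centring moved every gene by the same amount and left the distance to the median of all genes as it was. Bright array controls outside the lists also stood above 0. ACTB probe sets ran from 0.15 to 0.31, EEF1A1 from 0.16 to 0.25 and GAPDH from 0.11 to 0.21. The comparison with all genes did not match them by signal, and the part of signal level in the target values was not tested. In 3 of the 33 genes, ORM1, C3 and AMBP, the groups did not overlap, against 1.83% of all genes tested.

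The HNF4A list had 12 of 15 genes above 0 (median 0.15). With quantile normalisation 9 of 15 were above 0, and with each array centred on its median 10 of 15. Leaving out Se-yeast bird 1 gave 10 of 15 above 0 and a median of 0.09. The list held the thyroid hormone carrier TTR at 0.39, clotting factor F9 at 0.32 and the lipoprotein APOA1 at 0.31. On the other side of 0 was MTTP, which loads lipid onto lipoproteins, at -0.40. MTTP read 12606, 10631, 11478 and 12049 in control and 12134, 10917, 8974, 7160 and 6395 in Se-yeast birds. Se-yeast birds 3, 4 and 5 were below every control bird and the other 2 were inside the control range (interval -0.78 to -0.01, unadjusted p = 0.0443, limma adjusted p = 0.999), and the dimmer probe set of MTTP stood at -0.56 (unadjusted p = 0.00566, limma adjusted p = 0.999). The FOXA list had 8 of 8 genes above 0 (median 0.14), among them albumin, ALB, at 0.36 and APOB at 0.16. With quantile normalisation 6 of 8 were above 0, and with each array centred on its median also 6 of 8. Leaving out Se-yeast bird 1 gave 7 of 8 above 0 and a median of 0.24. The other tested probe sets of APOB stood between -0.21 and 0.14.

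G6PC, which releases glucose from the liver and is on 4 of the lists, stood at 0.86 with an interval from -0.39 to 2.10. Its signals were 20.7, 30.7, 33.7 and 212 in control and 41.2, 84.5, 184, 251 and 65.6 in Se-yeast birds, most of them near the level where probe sets were left untested. Control bird 4 was high with Se-yeast birds 3 and 4, and the groups overlapped. The identifier of its only probe set carries A1, as that of CEBPA 2 does, so it may not read the G6PC transcript. The strand was not checked here either. PCK1, the entry enzyme of gluconeogenesis, stood at 0.12 and read from 76.3 in Se-yeast bird 4 to 1462 in Se-yeast bird 5, so the birds differed far more within a diet than the diets did.

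The C/EBP list had 9 of 12 genes above 0 (median 0.25). With quantile normalisation 6 of 12 were above 0 (median 0.00), and with each array centred on its median 8 of 12 (median 0.19). ORM1, an acute phase protein, read 36562, 29664, 40259 and 24559.5 in control and 73497, 51165, 50412, 55917 and 42332 in Se-yeast birds. Every Se-yeast bird was above every control bird, at a difference of 0.74 (unadjusted p = 0.00103, limma adjusted p = 0.999). Without Se-yeast bird 1 it was 0.63 (unadjusted p = 0.00176, limma adjusted p = 0.97), and the groups were still apart. With that bird left out this was the case for 3.18% of all genes tested. Complement C3 stood at 0.40 and the fibrinogen chain FGG at 0.30, and SAA, the acute phase protein serum amyloid A, at -0.02. SAA read 13523 in Se-yeast bird 1, the bird with the highest CEBPB, and between 1312 and 5428 in the other 8 birds. ORM1, C3, ALB, TTR and APOA1 were also highest in that bird, the one whose bioB, bioC, bioD and cre controls stood apart. So were APOH, AMBP, TF, APOB, HPX, AHSG and KNG1, none of them on the C/EBP list, while F9 and F2 were not. Without Se-yeast bird 1 C3 stood at 0.30, ALB at 0.25, TTR at 0.28 and APOA1 at 0.20, and the median of the C/EBP list was 0.15. SAA moved from -0.02 to -0.59 without that bird (limma unadjusted p = 0.163), so its value near 0 depended on 1 bird.

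The NR5A2 list had 7 of 8 genes above 0 (median 0.19; 7 of 8 with quantile normalisation and 5 of 8 with each array centred on its median). The exception was CYP7A1, the rate-limiting enzyme of bile acid synthesis, at -1.21 (interval -2.76 to 0.35, limma adjusted p = 0.999). Its signals were 4425, 2417, 1964 and 11369 in control and 1739, 3648, 5209, 1484 and 275 in Se-yeast birds. Control bird 4 was the highest and Se-yeast bird 5 the lowest, and the groups overlapped widely. CYP8B1, which sets the type of bile acid made, stood at 0.33, and the lipid transfer protein CETP at 0.27. NR0B2, the repressor that closes the bile acid loop on NR5A2, stood at 0.03. Of the genes listed for ONECUT1, 3 of 5 stood above 0 (median 0.05; 2 of 5 under both other scalings), and PFKFB1, an enzyme that sets glycolytic flux, stood at -0.05.

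**Figure D4:**
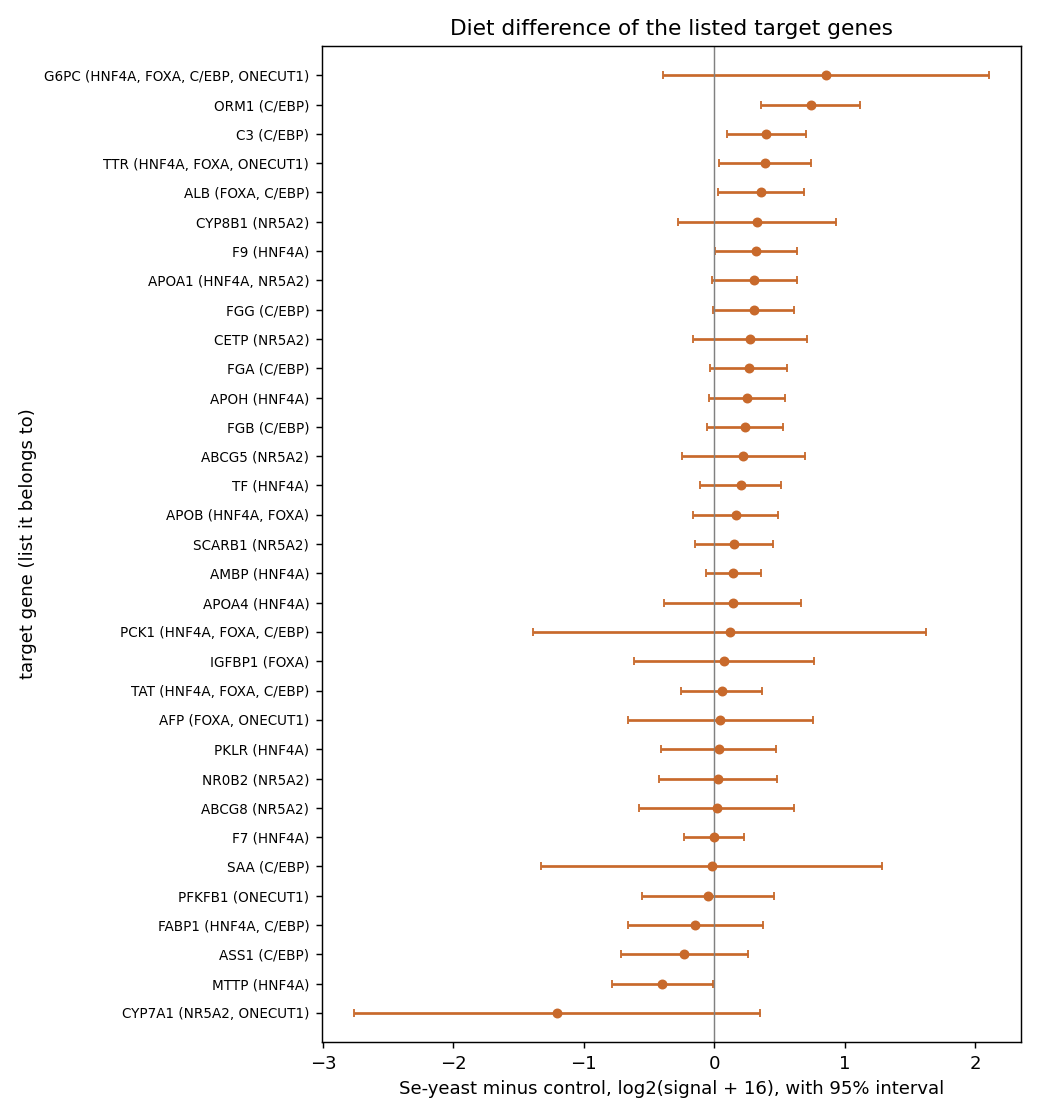
Points are differences between the diets on the log2(signal + 16) scale with 95% intervals from limma for the 33 tested target genes, with the lists each belongs to in brackets. ORM1 at 0.74 has the interval farthest above 0, while G6PC, CYP7A1, PCK1 and SAA have the widest ones.

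The level of each factor in a bird was also set against the mean log2(signal + 16) of its listed targets in that bird, in 6 pairs with group means removed, a relation chosen after the data were seen. The target genes were not brought to a common spread. Widely varying ones such as PCK1, G6PC and SAA therefore contributed more to how that mean varied between birds, and values without them were not computed. No pair passed (n = 9, smallest exact permutation p = 0.0737, adjusted p = 0.442). HNF4A had r = -0.28 with its targets (exact permutation p = 0.456; rho = -0.25, p = 0.521), FOXA1 -0.32 (p = 0.409; rho = -0.30, p = 0.437) and FOXA2 -0.27 (p = 0.481; rho = -0.33, p = 0.385). CEBPA had r = 0.07 (exact permutation p = 0.838; rho = 0.13, p = 0.744) and NR5A2 0.10 (p = 0.812; rho = 0.10, p = 0.81). Adjusted over the 6 pairs, the p of these 5 ran from 0.722 to 0.838 for r and stood at 0.81 for rho.

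CEBPB had the highest value, r = 0.64 (exact permutation p = 0.0737, adjusted p = 0.442), but a rho of 0.15 (p = 0.708, adjusted p = 0.81). Without the 2 birds farthest from the median of CEBPB, Se-yeast bird 1 and control bird 4, r turned to -0.75. The relation therefore rested on those birds, and without Se-yeast bird 1 alone r was -0.02 (n = 8, exact permutation p = 0.962, adjusted p = 0.996). Leaving out the 2 farthest birds gave r = -0.08 for HNF4A, -0.05 for FOXA1, -0.60 for FOXA2, 0.39 for CEBPA and 0.09 for NR5A2.

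**Figure D5:**
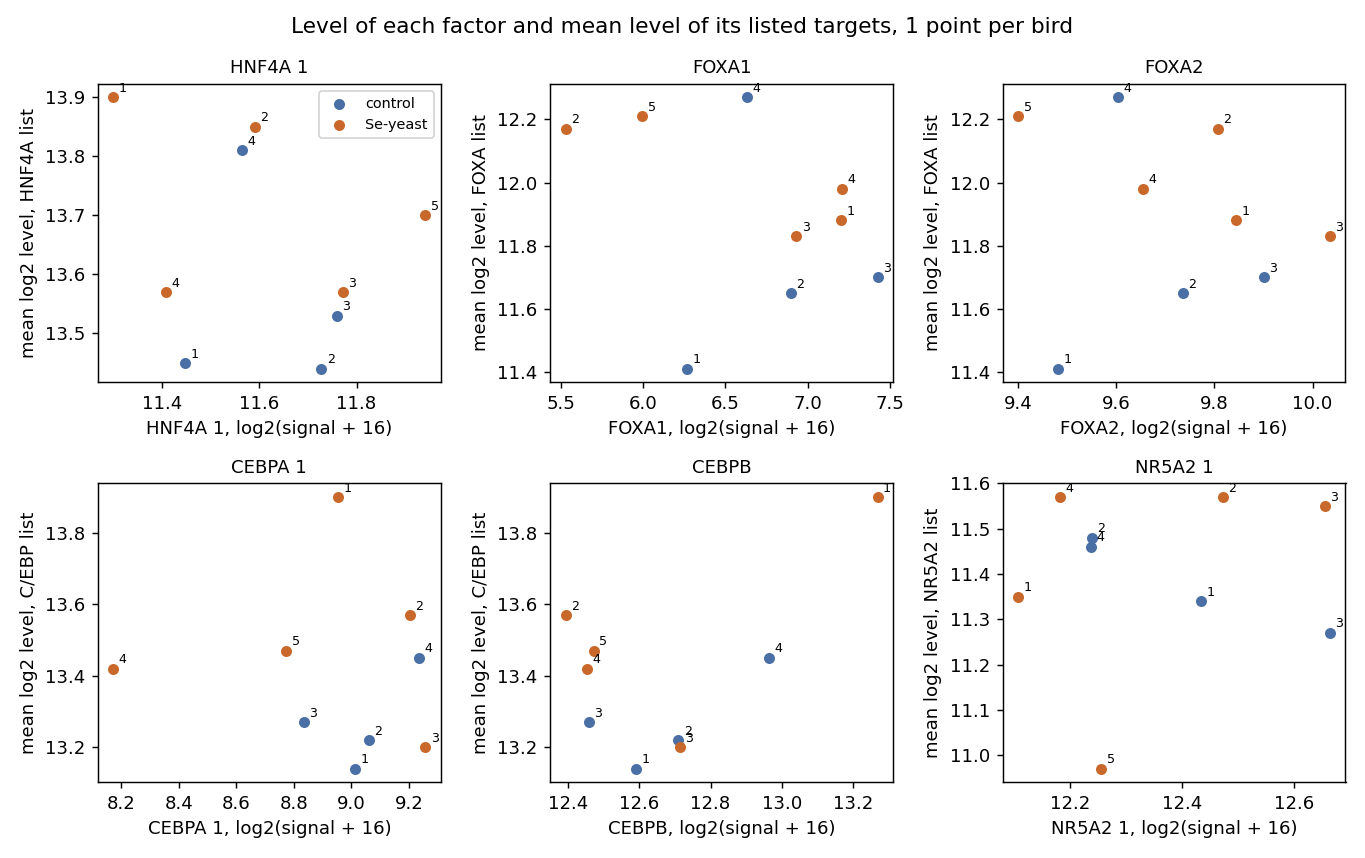
Each panel plots, for 1 factor, log2(signal + 16) of its brightest probe set on the horizontal axis against the mean log2(signal + 16) of its listed targets on the vertical axis, with 1 point per bird numbered by replicate, control in blue and Se-yeast in orange. In the CEBPB panel Se-yeast bird 1 stands alone at the upper right, and without it and control bird 4 the remaining birds slope the other way (r = -0.75).

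Cell type markers were measured in the same birds. Hepatocyte markers were bright in every array, and 15 of 16 tested genes stood above 0 (median 0.28), among them KNG1 at 0.32 and AHSG at 0.38. With quantile normalisation 10 of 16 of these markers were above 0 (median 0.01), and with each array centred on its median 14 of 16 (median 0.22). Their mean log2 level ranged from 15.09 to 15.35 in control and from 15.31 to 15.84 in Se-yeast birds, or to 15.51 without Se-yeast bird 1, and its part in the values of the target genes, which share several genes with it, was not tested. All 9 macrophage markers stood above 0 (median 0.18), at levels from 12.64 to 12.97 and from 12.89 to 13.15 in the same order, with CSF1R at 0.36 and CD74 at 0.32. Blood endothelium (median 0.04 over 6 genes, level 10.17 to 10.58 and 10.20 to 10.59) and stellate cells (0.08 over 7 genes, 10.98 to 11.24 and 11.16 to 11.28) lay near 0. Blood endothelial genes ran from PECAM1 at -0.17 to ERG at 0.28, and stellate genes from LUM at -0.14 to PDGFRB at 0.34.

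Some members are also made outside hepatocytes, PROX1 in lymphatic endothelium and PROX1, FOXA2 and NR5A2 in pancreas. Lymphatic markers were tested for 5 genes, 4 above 0 (median 0.13, level 9.03 to 9.26 in control and 9.16 to 9.54 in Se-yeast birds). FLT4 stood at 0.38, PDPN at 0.46, RELN at 0.13, LYVE1 at 0.02 and SOX18 at -0.08. PDPN was dim, with a mean signal of 61.4 in control birds, and its interval ran from -0.26 to 1.19. Of the pancreas markers only AMY2A and INS reached the tested level, at signals of 241 and 202 in control birds, while CPA1, CELA1, CELA2A and GCG lay below it. Bile duct markers were tested for 4 genes (median 0.19, level 8.71 to 9.68 and 9.26 to 9.79). EPCAM stood at 0.30, KRT7 at 0.56, SPP1 at 0.09 and CLDN4 at -0.02, and SOX9 and CFTR lay below the tested level. Intestinal markers were tested for 3 genes (median -0.07), with CDH17 at 0.47, CDX2 at -0.07 and LCT at -0.13, and VIL1, FABP2, MUC2 and CDX1 lay below that level. Blood cell genes were tested for 4 genes, none above 0 (median -0.06, level 10.68 to 12.41 and 10.78 to 11.79), with HBAD at -0.20. By limma 0 genes of these 9 marker lists passed (smallest adjusted p = 0.999). The unadjusted p was under 0.05 for 6 of 16 hepatocyte, 2 of 9 macrophage and 1 of 5 lymphatic genes, against 5.04% of all genes tested. Without Se-yeast bird 1 these counts were 2, 1 and 0, against 4.92% of all genes tested, and the median of the hepatocyte list was 0.18.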

How the data were processed

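The deposited values are MAS5 signal intensities on a linear scale, 1 array per bird; per the submitters' processing notes MAS5 made them, and its version and genome build are not given in the sources used here. Genes were named from the platform annotation: 27168 probe sets had 1 symbol, 177 several and 11094 none here, beside 96 array controls that stayed out of the tests. After adding 16, log2 was taken. The 23063 probe sets whose mean reached the 40th percentile (6.33, equal to a signal of 64.7) were fitted with lmFit and eBayes with an intensity trend (limma 3.58.1, R 4.3.3), 4 control against 5 Se-yeast birds, no covariate, two-sided, Benjamini-Hochberg over all of them. All 11 member probe sets passed that filter. Exact permutations and correlations used Python 3.11.15 and scipy 1.17.1. Precision is limited by the number of arrays. The labels call the samples biological replicates.

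The members, gene lists and rule for named genes (all members, up to 4 genes a list by smallest p, 3 most like each member) were chosen with earlier results of these data known. Genes outside that rule, among them AMBP, CEBPG, PCK1 and SAA, were named after their values were seen. Alternatives were a pseudocount of 1 or 64, no filter or the 60th percentile, quantile normalisation, median centring, variances without a trend or robust, the replicate number as a block, a chromosome W probe set as covariate and each bird left out. The values of lists and correlations without Se-yeast bird 1 were added after its spike-ins were seen. The fit was also run on simulated data with changes larger than any member's difference here, so that run does not bear on differences of the members' size. No protein, promoter or probe sequences were used here.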

Additional observations from a re-analysis of the deposited data

Results flagged for a closer look

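The 27 bioB, bioC, bioD and cre spike-in probe sets of Se-yeast bird 1 had a geometric mean signal of 8924.08. The other 4 Se-yeast birds lay between 3359 and 4095. The gap to the nearest of them was 0.868 of the whole range of the group, above the critical value of 0.71 for 5 birds. It was the only such gap among 30 groups examined, 22 of member signals and 8 of array measures, and chance flags about 1 group in 20. The cause was not tested.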

How the results depend on the processing

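Under all 19 alternatives to the limma fit, 0 member probe sets, 0 other factor and cofactor genes and 0 target genes passed. Over 207 values of single members under these alternatives the smallest adjusted p was 0.952, and 184 kept their sign. Of these values 1 had a limma unadjusted p under 0.05, that of CEBPA 2 without control bird 2. The sign of members near 0 was not fixed. HNF4A 1 stood at 0.0015 with quantile normalisation and 0.0687 with the chromosome W covariate. HNF4A 3 and PROX1 stood at -0.0047 and -0.0139 with each array centred on its median. HNF4A 3 and CEBPB stood at -0.0821 and 0.0268 with the replicate number as a block. The chromosome W covariate also moved HNF4A 2 to 0.2861 (limma unadjusted p = 0.0609), HNF4A 3 to 0.217 and CEBPB to -0.1878. FOXA1 and CEBPA 1 moved away from 0 as well, to -0.3112 and -0.254. FOXA2, CEBPA 2, PROX1, NR5A2 1 and NR5A2 2 moved towards 0. The log2 level of that W probe set had a range of 4.93 over the birds, and their sex was not tested. With 1 bird left out the ranges were -0.11 to 0.053 for HNF4A 1, 0.03 to 0.25 for HNF4A 2, -0.0821 to 0.16 for HNF4A 3, -0.41 to 0.0297 for FOXA1 and -0.0039 to 0.15 for FOXA2. They were -0.26 to 0.0116 for CEBPA 1, 0.13 to 0.92 for CEBPA 2, -0.17 to 0.0746 for CEBPB, -0.0499 to 0.10 for PROX1, -0.14 to 0.0311 for NR5A2 1 and -0.62 to 0.0223 for NR5A2 2. The number of members with an exact permutation p under 0.05 was 0, and between 0 and 1 with a bird left out. The count over all probe sets was 6, but 3 without the intensity trend, 3 with the replicate block and 3 to 7 with a bird left out; the cause was not tested. Same-numbered birds of the groups did not deviate together (r from -0.11 to 0.04 over the tested probe sets). Birds with different numbers ran from -0.20 to 0.19. A shared pen or processing run could leave no such trace, so whether the numbers pair birds is not known. The block changed no call of a member. No pair of members passed with a pseudocount of 1 or 64, either other scaling or a bird left out. Depth does not apply to arrays: FOXA1 and CEBPA 2 lay close to the tested signal level, where intervals were wide.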
